A study of Mus musculus with 6 samples.

Results

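Actins and tropomyosins were followed in C2C12 mouse myoblasts that carried an shRNA against PRDM2 (PRDM2 KD) or a control GFP shRNA (GFP control). The members are every probe set that the platform annotation assigns to exactly 1 of 10 genes, the actins Acta1, Actc1, Acta2, Actg2, Actb and Actg1 and the tropomyosins Tpm1, Tpm2, Tpm3 and Tpm4, with the Affymetrix control probe sets left out. This gave 10 of 18193 genes and 23 of 45037 probe sets, 9 for actins and 14 for tropomyosins. C2C12 is an established myoblast line, and each group had 3 Affymetrix arrays, labelled as biological replicates of a stable pool of transfected cells. All cells of both groups were held for 48 hours in methylcellulose suspension with 20% fetal calf serum, which the labels describe as synchronization in G0. The comparison asks which transcripts differ in arrested myoblasts when PRDM2, a PR/SET domain zinc finger protein, is knocked down. Nothing in the labels says that the 3 samples of a group came from separate transfections, so p-values measure the spread between these samples.

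Actin assembles into the filaments of every cell and into the thin filaments of the sarcomere. Mammals make 2 striated muscle alpha-actins, 2 smooth muscle actins and 2 cytoplasmic actins from separate genes, and developing skeletal muscle replaces part of its cytoplasmic actin with the alpha-actins. Tropomyosins are coiled-coil dimers that lie along the filament. In striated muscle they work with troponin to let myosin bind only when calcium is present, and tropomyosin genes make several forms each through alternative promoters and exons, Tpm1, Tpm2 and Tpm3 both muscle and nonmuscle ones. Many actin genes are controlled by SRF, a transcription factor that binds the CArG box, and by its MRTF coactivators, which are held back by free actin monomers.

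The RefSeq promoter table (build GRCm38.p6) held 9 windows for 8 of the 10 genes, each with 250 bases before and 50 after an annotated start. A CArG box was counted only as the exact pattern CCWWWWWWGG on either strand, where W is A or T. Boxes with a mismatch were not searched or marked. The exact pattern lay in 3 of the 4 actin windows and in 0 of the 5 tropomyosin windows, against 1.63% of all 32851 windows in the table. The 250 bases before the start are shown for the 3 actin genes with a match, because Acta1 and Actc1 were far higher in PRDM2 KD cells while Actg1 did not pass the test. Capitals mark the CArG box, at -73 to -64 in Acta1, -47 to -38 in Actc1 and -90 to -81 in Actg1, counted from -1 as the base just before the start. The positions refer to annotated starts, and where transcription begins in these cells was not tested.
Acta1 (chr8:123894776-123895025, minus strand): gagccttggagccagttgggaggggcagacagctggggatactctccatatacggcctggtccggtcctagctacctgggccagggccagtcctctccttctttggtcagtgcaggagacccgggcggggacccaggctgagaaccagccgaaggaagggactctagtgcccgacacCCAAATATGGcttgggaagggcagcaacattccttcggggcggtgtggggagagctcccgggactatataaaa
Actc1 (chr2:114052876-114053125, minus strand): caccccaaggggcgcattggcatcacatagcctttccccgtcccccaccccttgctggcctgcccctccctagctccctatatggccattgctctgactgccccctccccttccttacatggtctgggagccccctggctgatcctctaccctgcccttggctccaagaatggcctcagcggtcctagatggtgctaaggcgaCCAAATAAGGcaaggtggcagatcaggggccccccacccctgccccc
Actg1 (chr11:120348496-120348745, minus strand): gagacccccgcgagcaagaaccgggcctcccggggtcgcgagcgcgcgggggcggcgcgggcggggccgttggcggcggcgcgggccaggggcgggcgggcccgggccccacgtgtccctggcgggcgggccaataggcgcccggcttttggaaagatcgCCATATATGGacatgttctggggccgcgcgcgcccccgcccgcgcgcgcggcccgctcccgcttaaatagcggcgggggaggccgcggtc
The TEAD-binding MCAT motif, CATTCC on either strand, was found in the windows of Acta1, Acta2 and Tpm1, and in 14.7% of all windows. A TATA motif, TATAAA on either strand, lay at -7 to -2 in Acta1 and after the annotated start, at 34 to 39, in Actc1. It was in 13.6% of all windows. An E-box, CANNTG, was in all 9 member windows, where 72.3% of all windows hold one, and a MEF2 site was in none of the 9, against 3.19% of all windows. The motifs did not overlap each other in the member windows. A match describes the letters in the window and does not show that a factor binds there.

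Levels are the deposited linear intensities, and differences are of log2(intensity + 16) after quantile normalization, PRDM2 KD minus GFP control. The offset of 16 shrinks changes of dim probe sets, and between 55.1% and 58.2% of all probe sets on each array lay below it. A probe set was called at a limma adjusted p under 0.05 over all 45037. Prdm2 itself had intensities of 58.0, 51.5 and 29.0 in PRDM2 KD cells and 86.2, 73.6 and 47.1 in GFP control cells at its brightest probe set. The groups overlap, and the log2 difference of -0.51 missed the threshold (limma adjusted p = 0.441). GFP control array 3 had low ratios of 5' to 3' control signal, 0.114 for beta-actin and 0.0992 for Gapdh, against 0.299 to 0.723 and 0.704 to 1.14 on the other arrays. The third array of each group also gave a weak signal for the Dap poly-A spike, 42.3 in PRDM2 KD and 43.1 in GFP control, against 160 to 350 on the rest, so differences within the other 4 arrays are given where they matter.

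Of the 23 member probe sets, 7 were higher in PRDM2 KD cells and 0 were lower past the threshold, which is 30.4% called higher. Over all probe sets, 1.42% were called higher and 1.01% lower by the same limma fit. At an unadjusted p under 0.05 limma gave 9 member probe sets higher and 2 lower, and ordinary statistics without moderation gave 9 and 1. At that unadjusted p, 6.47% of all probe sets were higher and 5.18% lower by limma, and 5.74% and 4.61% by ordinary statistics. For the gene lists, the shares of all genes at an unadjusted p under 0.05 by limma were 8.89% higher and 7.27% lower. The 7 belonged to 5 genes, Acta1, Actc1, Actg2, Tpm1 and Tpm3. The 3 PRDM2 KD values all lay above the 3 GFP control values for 9 member probe sets and all below them for 1, where the shares over all probe sets were 9.6% and 7.5%. With each gene represented by its probe set of highest mean intensity, 3 of the 10 genes were called higher and 0 lower, against 2.29% and 1.64% of all 18193 genes. The median difference of the 23 probe sets was 0.24, beside -0.0056 over all probe sets. In bulk RNA, more cells of a type and more transcript per cell cannot be told apart. Without PRDM2 KD array 1 the count of higher probe sets was 4, and within the 4 arrays of higher spike signal it was 1, that of Acta1.

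**Figure D1:**
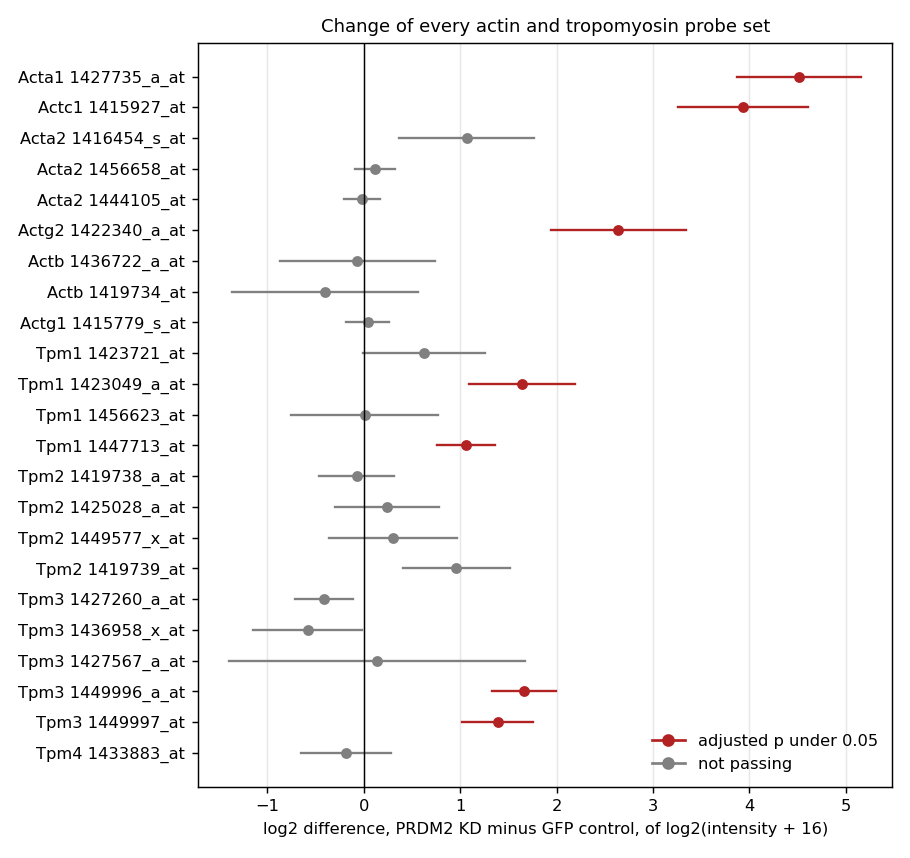
Log2 difference, PRDM2 KD minus GFP control, of every actin and tropomyosin probe set on the log2(intensity + 16) scale. Points are limma estimates from 3 arrays per group, bars their 95% intervals, and red marks a limma adjusted p under 0.05. Acta1 stands at 4.51 and Actc1 at 3.93, while both probe sets of Actb and that of Actg1 have intervals that hold 0.

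The striated muscle alpha-actins showed the largest differences among the members. Acta1, the skeletal alpha-actin of adult muscle, read 2142, 2024 and 2618 on the PRDM2 KD arrays, against 98.9, 53.3 and 89.8 on the GFP control arrays. All knockdown values lay far above all control values. On the log2 scale the groups differed by 4.51 (SE 0.266, 95% interval 3.87 to 5.16, limma adjusted p = 0.00113). The 4 arrays of higher spike signal gave 4.56, and the third arrays of the groups gave 4.48. Acta1 stayed past the threshold under all 18 alternatives fitted to probe sets, with adjusted p up to 0.0487.

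Actc1, the cardiac alpha-actin that skeletal muscle also makes while it develops, was high on the same arrays. Its intensities were 785, 985 and 1011 in PRDM2 KD cells and 73.8, 30.0 and 36.2 in GFP control cells. The groups did not overlap, and GFP control array 1 was the highest of its group. Actc1 was higher by 3.93 on the log2 scale (SE 0.280, limma adjusted p = 0.00199). The difference was 3.83 within the 4 arrays of higher spike signal, where the adjusted p was 0.0774, and 4.20 between the third arrays. Of 8 heart muscle markers 0 were called in either direction by limma, with 0 higher and 1 lower at an unadjusted p under 0.05. The summed intensity of these markers was 68.6 to 78.5 on the PRDM2 KD arrays and 82.4 to 89.1 on the GFP control arrays. All but 1 of them, Nkx2-5, were under 16 on every array.

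**Figure D2:**
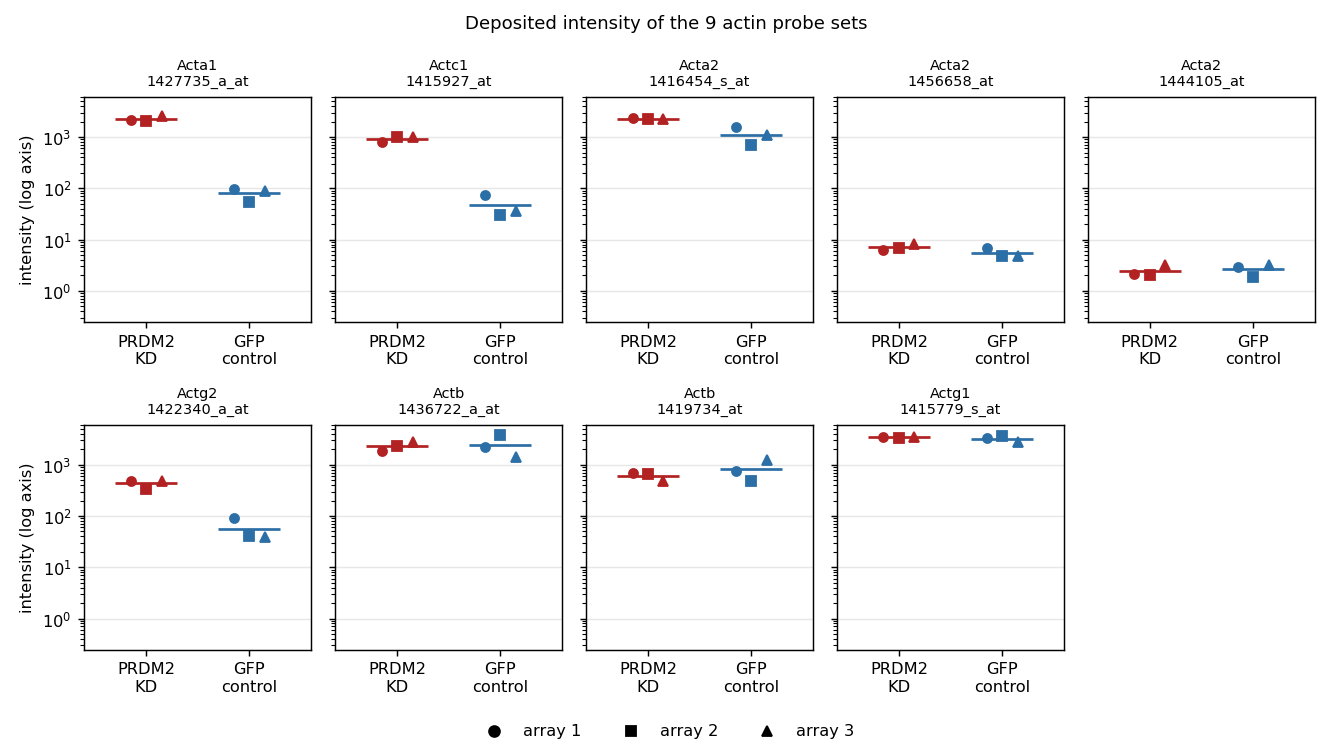
Deposited intensity of the 9 actin probe sets, on a log axis, in PRDM2 KD cells (red) and GFP control cells (blue), with 1 symbol per array and a line at the mean of 3. Acta1, Actc1 and Actg2 separate widely, while Actb and Actg1 overlap and the 2 dim Acta2 probe sets stay below 10.

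The smooth muscle actins differed from each other in what could be called. Actg2, the gamma-actin of enteric smooth muscle, had intensities of 487, 335 and 488 in PRDM2 KD cells and 91.5, 41.4 and 38.2 in GFP control cells. All knockdown values lay above all control values, and Actg2 was higher by 2.64 on the log2 scale (SE 0.290, limma adjusted p = 0.00931). That adjusted p became 0.0611 without PRDM2 KD array 1, 0.0550 without PRDM2 KD array 3 and 0.160 within the 4 arrays of higher spike signal, where the difference was 2.44.

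Acta2, the alpha-actin of vascular smooth muscle, was also higher on every knockdown array at its bright probe set, without passing. It read 2393, 2206 and 2285 in PRDM2 KD cells, against 1552, 690 and 1112 in GFP control cells, so the means were 2295 ± 93.9 and 1118 ± 431 (SD, n = 3 each). The spread came from the control side, where array 2 was lowest. The log2 difference was 1.07 (95% interval 0.37 to 1.77, limma adjusted p = 0.174), and without GFP control array 2 it was 0.72 with an adjusted p of 0.0424. This probe set has the suffix _s_at, which Affymetrix gives to probe sets whose probes can match transcripts of more than 1 gene. The other 2 Acta2 probe sets read between 1.87 and 8.20 on all arrays and differed by 0.12 and -0.017. The change of Actg2 exceeded that of the bright Acta2 probe set on every knockdown array: relative to the control mean, Actg2 minus Acta2 was 1.69, 1.31 and 1.71 in PRDM2 KD cells and 0.17, 0.30 and -0.47 in GFP control cells on the log2 scale.

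Markers that define smooth muscle were read beside Actg2 and Acta2. Of 8 markers 1 was higher and 0 lower by limma, with 1 and 1 at an unadjusted p under 0.05. Among all genes, 2.29% were called higher and 1.64% lower. The median difference of the 8 markers was 0.17. Their summed intensity was 299 to 417 on the PRDM2 KD arrays and 463 to 654 on the GFP control arrays, and most of this sum was Smtn. Smtn, which encodes smoothelin and was the brightest of them, averaged 242 ± 68.1 in PRDM2 KD cells and 436 ± 105.5 in GFP control cells, with every knockdown value below every control value (log2 difference -0.90, limma adjusted p = 0.136). Lmod1, the smooth muscle leiomodin, was the one called, with means of 25.2 ± 9.17 in PRDM2 KD cells and 1.87 ± 0.897 in GFP control cells (SD, n = 3 each). Myh11, the smooth muscle myosin heavy chain, averaged 9.33 ± 1.40 and 7.13 ± 4.95 in the same order and did not pass (limma adjusted p = 0.844). Pln, phospholamban, averaged 49.9 ± 22.4 in PRDM2 KD cells and 62.5 ± 14.4 in GFP control cells, and Myocd, the SRF coactivator of smooth and heart muscle, averaged 7.93 ± 3.79 in PRDM2 KD cells and 4.20 ± 4.64 in GFP control cells. In all, 4 of the 8 were under 16 on every array.

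The cytoplasmic actins did not pass the test. Actg1, cytoplasmic gamma-actin, read 3527, 3351 and 3560 in PRDM2 KD cells and 3292, 3678 and 2814 in GFP control cells. Its log2 difference was 0.042 with a 95% interval of -0.18 to 0.27 (limma adjusted p = 0.935), so a change beyond 0.27 in either direction lies outside the interval. That interval holds for quantile-normalized values. The difference was 0.10 with no normalization and 0.12 with median centring. This probe set too has the suffix _s_at.

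Actb, cytoplasmic beta-actin, had 2 probe sets that moved in opposite ways across the control arrays. The brighter one read 1858, 2303 and 2757 in PRDM2 KD cells and 2195, 3801 and 1408 in GFP control cells. The dimmer one read 684, 654 and 493 in PRDM2 KD cells and 755, 476 and 1267 in GFP control cells. GFP control array 2 was the highest of the 6 for the brighter and the lowest for the dimmer, and GFP control array 3 was the reverse. Their log2 differences were -0.065 (95% interval -0.87 to 0.74) and -0.40 (95% interval -1.37 to 0.56), with limma adjusted p of 0.976 and 0.821. These intervals are wide, and within the 4 arrays of higher spike signal the differences were -0.48 and 0.16, so no direction is given for Actb. The beta-actin control ratio of 5' to 3' signal was likewise highest on GFP control array 2, at 0.723, and lowest on GFP control array 3, at 0.114. It was 0.299, 0.399 and 0.549 on PRDM2 KD arrays 1 to 3. With the Gapdh ratio as a covariate the differences of Actb were -0.30 and -0.044, and the part of these ratios in the values was otherwise not tested.

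Changes of the actin isoforms were also compared within each array. Relative to the control mean, Acta1 minus the brighter Actb probe set stood at 4.80, 4.41 and 4.53 on the PRDM2 KD arrays and at 0.39, -1.25 and 0.86 on the GFP control arrays, on the log2 scale. Acta1 minus Actc1 was 0.73, 0.33 and 0.68 in PRDM2 KD cells and -0.33, -0.078 and 0.40 in GFP control cells, so these 2 changes lay close together and their values overlap between the groups. No level of one gene was set against that of another, since probe sets differ in how brightly they read a transcript.

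Among tropomyosins, 4 of 14 probe sets were higher and 0 lower past the threshold, and the 4 were split between Tpm1 and Tpm3. Tpm1, the alpha-tropomyosin of fast and cardiac muscle that also makes nonmuscle forms, had 4 probe sets. The first, 1423049_a_at, read 700, 903 and 948 in PRDM2 KD cells and 254, 356 and 167 in GFP control cells. The groups were apart, with a log2 difference of 1.64 (SE 0.227, limma adjusted p = 0.0204). Leaving out 1 array lost this call in 5 of 6 cases: the adjusted p was 0.0567, 0.0941 and 0.0897 without PRDM2 KD arrays 1, 2 and 3, and 0.0934 and 0.0535 without GFP control arrays 1 and 3. The second, 1447713_at, was dim, at 29.4, 33.3 and 22.4 in PRDM2 KD cells and 7.30, 2.78 and 5.33 in GFP control cells. It was higher by 1.06 (SE 0.124, limma adjusted p = 0.0117), and the adjusted p was 0.0703 without PRDM2 KD array 1 and 0.0544 without PRDM2 KD array 2. Its control values lie under the offset, and the difference was 2.30 with an offset of 1 and 0.41 with an offset of 64. Both calls also missed the threshold with the replicate number as a block, at adjusted p of 0.0571 and 0.0515.

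The remaining Tpm1 probe sets did not pass. The one that represents the gene, 1423721_at, had intensities of 658, 556 and 867 in PRDM2 KD cells and 464, 584 and 264 in GFP control cells, which overlap. Its log2 difference was 0.63 (95% interval -0.0093 to 1.26, limma adjusted p = 0.440), at 0.21 in the 4 arrays of higher spike signal and at 1.47 between the third arrays. The last, 1456623_at, read 38.3, 78.7 and 54.2 in PRDM2 KD cells and 48.6, 92.4 and 29.7 in GFP control cells, a difference of 0.010 (limma adjusted p = 0.998). At these 2 probe sets, as at 1423049_a_at, GFP control array 2 was the highest and array 3 the lowest of the controls.

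Tpm2 encodes beta-tropomyosin of muscle and also nonmuscle forms, and none of its 4 probe sets passed. The brightest, 1419738_a_at, read 1922, 1421 and 1448 in PRDM2 KD cells and 1672, 1471 and 1688 in GFP control cells (log2 difference -0.073, 95% interval -0.46 to 0.31). Probe set 1425028_a_at read 1454, 1141 and 1299 in PRDM2 KD cells and 1087, 875 and 1294 in GFP control cells, and 1449577_x_at read 757, 534 and 647 in PRDM2 KD cells and 508, 357 and 617 in GFP control cells. Both overlap between the groups, with log2 differences of 0.24 and 0.31 (limma adjusted p = 0.800 and 0.796). The fourth, 1419739_at, had all knockdown values above all control values, at 318, 238 and 385 in PRDM2 KD cells and 162, 187 and 92.2 in GFP control cells. It differed by 0.96 (95% interval 0.41 to 1.52, limma adjusted p = 0.121), and by 0.61 in the 4 arrays of higher spike signal against 1.67 between the third arrays. With array weights it passed, at 0.88 (limma adjusted p = 0.0423).

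**Figure D3:**
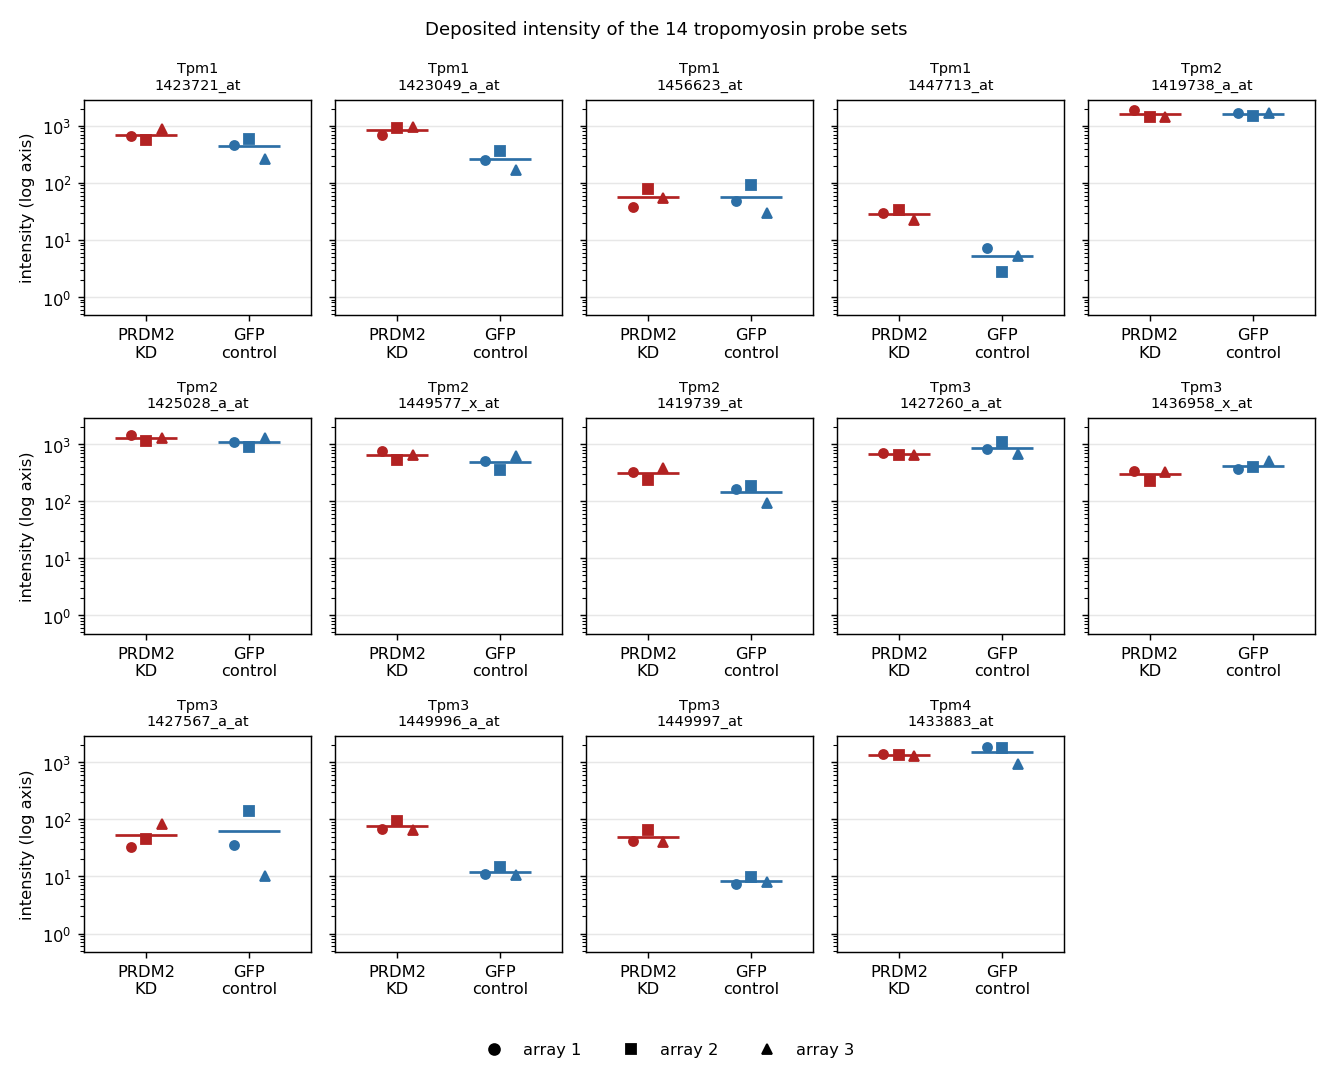
Deposited intensity of the 14 tropomyosin probe sets, on a log axis, in PRDM2 KD cells (red) and GFP control cells (blue), with 1 symbol per array and a line at the mean of 3. Probe sets 1449996_a_at and 1449997_at of Tpm3 are apart between the groups, while 1427260_a_at and 1436958_x_at of the same gene have lower means in PRDM2 KD cells.

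Tpm3 carries a slow muscle form and cytoskeletal forms, and which of them each of its 5 probe sets reads was not analysed. Only 1449996_a_at and 1449997_at passed. Probe set 1449996_a_at read 68.3, 92.7 and 65.2 in PRDM2 KD cells, against 10.9, 14.8 and 10.8 in GFP control cells. The difference was 1.66 (SE 0.136, limma adjusted p = 0.00333), with 2.51 at an offset of 1 and 0.85 at an offset of 64. Next to it, 1449997_at read 41.1, 64.8 and 40.5 in PRDM2 KD cells and 7.36, 9.80 and 7.86 in GFP control cells, a difference of 1.39 (SE 0.151, limma adjusted p = 0.00912). The offsets of 1 and 64 gave 2.39 and 0.63, and the adjusted p was 0.0517 without GFP control array 1. All control values of both probe sets lie under 16. PRDM2 KD array 2 was the highest of the 6 at both probe sets.

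The brighter Tpm3 probe sets had lower means in the knockdown. Intensities of 1427260_a_at were 698, 645 and 640 in PRDM2 KD cells and 816, 1092 and 675 in GFP control cells, which overlap (log2 difference -0.42, 95% interval -0.72 to -0.12, limma adjusted p = 0.222). Those of 1436958_x_at were 343, 222 and 319 in PRDM2 KD cells and 369, 392 and 497 in GFP control cells, the one member probe set with every knockdown value below every control value (log2 difference -0.58, limma adjusted p = 0.409). The suffix _x_at marks probe sets with probes that may cross-hybridize. Probe set 1427567_a_at ranged from 33.4 to 83.5 in PRDM2 KD cells and from 10.1 to 142 in GFP control cells, and its difference of 0.14 has an interval of -1.39 to 1.68.

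Tpm4, a tropomyosin of nonmuscle cells, had 1 probe set, which did not pass. It read 1387, 1343 and 1310 in PRDM2 KD cells and 1839, 1812 and 954 in GFP control cells. The log2 difference was -0.18 (95% interval -0.65 to 0.28, limma adjusted p = 0.832). GFP control array 3, the array of low 5' to 3' ratios, was the lowest of the 6, and without it the difference was -0.41.

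Probe sets of 1 gene were next compared in how much they changed, over all 25762 probe sets of genes with more than 1. By limma's diffSplice, which sets each probe set's change against the others of its gene, 1 of 18 member probe sets differed past the threshold, against 1.72% of all. It was the bright Acta2 probe set, 1.02 above the 2 that stayed below 10 (diffSplice adjusted p = 0.0456), and dim probe sets can show little change on this scale. That method pools the spread over a gene's probe sets and made more calls outside changed genes in simulated data than its threshold allows. Its count of member probe sets was 0 without any one of the PRDM2 KD arrays and 4 without GFP control array 2. The difference of each probe set from the mean of the others was therefore also taken within each array and fitted with limma, an alternative added after the data were seen. It called 3 of the 18 member probe sets, against 0.928% of all.

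The 3 lay in Tpm1 and Tpm3. Tpm1 1423049_a_at changed by 1.07 more than the mean of the other Tpm1 probe sets (SE 0.145, adjusted p = 0.0219). Tpm3 1449996_a_at changed by 1.53 more than the mean of its others (SE 0.208, adjusted p = 0.0220), and Tpm3 1427260_a_at by 1.07 less (SE 0.140, difference -1.07, adjusted p = 0.0186). For the same 3 probe sets diffSplice gave adjusted p of 0.116, 0.0615 and 0.343. In the within-array fit each called Tpm3 probe set was part of the mean set against the other, so these calls are not independent. The mean set against 1427260_a_at also held 1449997_at, and the own differences of 1449996_a_at and 1449997_at were 1.66 and 1.39. On its own 1427260_a_at changed by -0.42, and at a limma adjusted p of 0.222 it was not called. The transcripts that each of these probe sets reads were not analysed here.

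**Figure D4:**
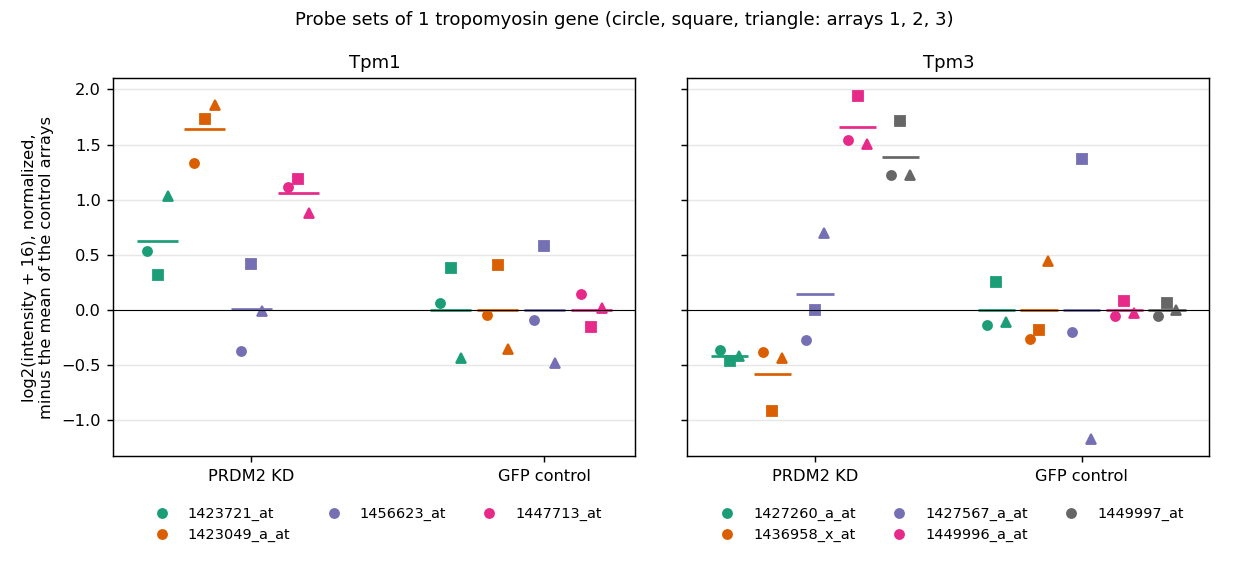
Normalized log2(intensity + 16) of each Tpm1 and Tpm3 probe set minus its own mean over the 3 GFP control arrays, with symbols for arrays 1 to 3 and lines at group means. In Tpm3 the PRDM2 KD means run from -0.58 to 1.66, and in Tpm1 from 0.010 to 1.64.

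Transcripts that encode partner proteins of muscle thin filaments were mostly higher along with the alpha-actins. Of 18 measured genes of that list 12 were higher, 1 was lower and 5 did not pass, with a median difference of 1.98 beside -0.0036 over all genes. The shares of all genes called were 2.29% higher and 1.64% lower. The troponin subunits Tnnc2, Tnni2, Tnnc1 and Tnnt3, which make the filament sensitive to calcium, were higher by 4.61, 4.23, 3.82 and 3.75. Tmod1, tropomodulin 1, which caps the pointed end of the filament and binds tropomyosin there, was the one lower gene, at -1.26 (limma adjusted p = 0.0256). The count of lower genes in the list was 1 without GFP control array 2 and 0 without any one of the other arrays. The list's summed intensity ran from 6078 to 7083 on the PRDM2 KD arrays and from 653 to 981 on the GFP control arrays.

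Genes that fold actin, bind its monomers or turn filaments over mostly did not pass. Against 2.29% of all genes called higher and 1.64% called lower, 3 of 32 measured were higher and 0 lower by limma. At an unadjusted p under 0.05 the counts were 3 and 1, and the median was 0.014. The 3 were Cap2, a cyclase-associated protein of striated muscle that acts on actin monomers, Dstn, the depolymerizing factor destrin, and Tmsb4x, the monomer-binding thymosin beta 4. They differed by 1.35, 0.99 and 0.97, with limma adjusted p of 0.00113, 0.0120 and 0.0454. Without GFP control array 3 the count of higher genes was 1. Tmsb4x had intensities of 2839, 3129 and 2767 in PRDM2 KD cells and 1848, 1546 and 986 in GFP control cells, the lowest of them on GFP control array 3.

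Among filament partners of nonmuscle cells, 0 of 24 measured genes were higher and 1 was lower by limma, with 3 and 4 at an unadjusted p under 0.05. Of all genes, 2.29% were called higher and 1.64% lower, so 1 of 24 is near the background. Myh10, a nonmuscle myosin II heavy chain, averaged 171 ± 18.3 in PRDM2 KD cells and 283 ± 54.1 in GFP control cells (SD, n = 3 each), a log2 difference of -0.76 (limma adjusted p = 0.0230). The count of lower genes in this list too was 1 without GFP control array 2 and 0 without any one of the others. The list's median was 0.012.

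Of 13 measured regulators of the SRF and MRTF pathway 0 were higher and 2 lower by limma, with 3 and 4 at an unadjusted p under 0.05, and the median was -0.029. Of all genes, 2.29% were called higher and 1.64% lower, so 2 of 13 is a larger share, though of few genes. Mrtfb, an SRF coactivator, averaged 225 ± 24.0 in PRDM2 KD cells and 435 ± 101 in GFP control cells, and Diaph1, a formin that assembles actin filaments, averaged 184 ± 24.5 and 318 ± 31.2 (SD, n = 3 each). Their log2 differences were -0.97 and -0.83, with limma adjusted p of 0.0215 and 0.0244. The count of lower genes was 1 without GFP control array 2 and 0 without any one of the others. Srf itself had means of 149 ± 15.9 in PRDM2 KD cells and 99.2 ± 10.6 in GFP control cells, a log2 difference of 0.42 that missed the threshold (limma adjusted p = 0.294).

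**Figure D5:**
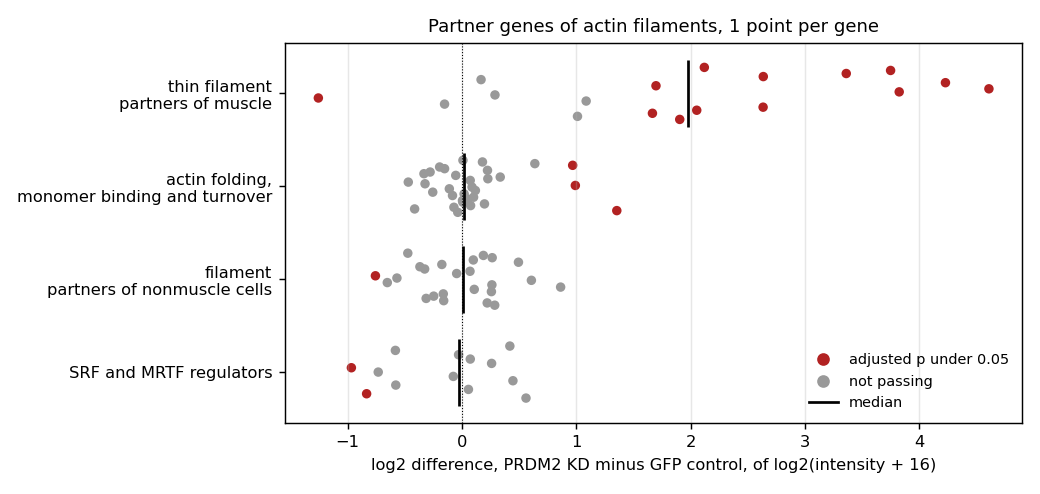
Log2 difference, PRDM2 KD minus GFP control, of the genes in 4 lists of actin filament partners, 1 point per gene, with red for a limma adjusted p under 0.05 and a bar at the list's median. The thin filament list has a median of 1.98, and the other 3 have medians of 0.014, 0.012 and -0.029.

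Markers listed for myotubes, the fused and differentiated muscle cells, moved with the alpha-actins. Whether cells had fused was not measured. All 6 were higher, where 2.29% of all genes were called higher and 1.64% lower. Tnnt3 is in this list and also in the thin filament list, so those counts share a gene. The summed intensity of the 6 was 2568 to 3441 on the PRDM2 KD arrays and 71.3 to 137 on the GFP control arrays. Of 6 myoblast markers 0 were higher and 1, Myf5, was lower by limma, also at an unadjusted p under 0.05, with sums of 3746 to 4358 in PRDM2 KD cells and 4590 to 4831 in GFP control cells. The intermediate filament genes Des and Vim averaged 789 and 2917 in PRDM2 KD cells and 977 and 3315 in GFP control cells, and Pax7 was under 16 on every array. Vim made up most of the sums. Myod1 and Cdh15 went the other way, with means of 243 and 60.3 in PRDM2 KD cells and 165 and 51.6 in GFP control cells. Both overlap between the groups. Fibroblast markers had 1 of 8 higher, Col1a1, and 0 lower, with 3 higher and 0 lower at an unadjusted p under 0.05, a median difference of 0.37 and sums of 3540 to 4010 in PRDM2 KD cells and 2221 to 3758 in GFP control cells. Macrophage and endothelial markers had 0 called of 6 each, with 1 and 0 lower and 0 and 0 higher at an unadjusted p under 0.05. Their sums were at most 137 and 75.9 in PRDM2 KD cells and 257 and 93.8 in GFP control cells. Of the 9 marker calls 6 were lost under at least 1 alternative, those of Myog, Ckm, Ttn, Myf5, Col1a1 and Lmod1. The part of such markers in the actin and tropomyosin results was not tested.

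The pattern of Acta1 over the 6 arrays was most like that of Myh3, Tnnt3, Atp2a1, Srl and Tnnt2, among 5415 genes with a group mean above 100. Pearson correlations of the log2 values were 0.999, 0.998, 0.998, 0.998 and 0.997. They describe points that share the same 6 arrays and fall into 2 groups, so they carry mainly the difference between the groups. Myh3, embryonic myosin heavy chain, read 1031, 1104 and 1311 in PRDM2 KD cells and 26.1, 12.9 and 26.2 in GFP control cells, with the lowest control value on array 2 as for Acta1.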

How the data were processed

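RNA from 6 samples of C2C12 cells was hybridized to Affymetrix mouse arrays. Biotinylated cRNA came from 8 µg of Trizol-extracted RNA, per the labels' protocols. The authors deposited linear intensities, 1 for each probe set on each array. Per the submitters' processing notes GCOS and PLIER were used. For background correction and normalization between arrays, the sources used here give no method. Of 45101 probe sets, 64 were Affymetrix controls and were not tested, and 0 columns belonged to other samples.

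Intensities were taken as log2(intensity + 16), quantile normalized and fitted with limma 3.58.1 in R 4.3.3 (lmFit, eBayes) over 45037 probe sets, with Benjamini-Hochberg adjustment over all of them and a threshold of 0.05. Genes came from the platform annotation, with exactly 1 symbol for 34945 probe sets and 18193 genes. Each gene of a list was represented by its probe set of highest mean intensity. All tests were tried on simulated data, where diffSplice called too many probe sets of unchanged genes. The members, lists and tests were chosen with earlier results of these data known. All member probe sets are reported. From each partner list up to 4 called genes of largest change were named, and other genes were named after their values were seen. The labels do not say whether the 3 replicate numbers shared by the groups pair the arrays, and the main fit used no pairing. Deviations of same-numbered arrays from their group means correlated at 0.389, 0.074 and 0.0036. Arrays of unlike number correlated at -0.430 to 0.264. With 3 arrays per group these values cannot decide whether arrays were paired, and the third arrays of both groups shared the weak Dap spike. The number of arrays limits the precision. The offset sets the size of differences of probe sets near or under it. No protein sequences were used here.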

Additional observations from a re-analysis of the deposited data

How the results depend on the processing

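Of 20 alternative settings 18 gave values for member probe sets, and Acta1 kept its direction and call in all of them. The 6 other called member probe sets kept their direction in all, and lost the call in 2 (Actc1), 4 (Actg2), 8 and 5 (Tpm1 1423049_a_at and 1447713_at), and 2 and 3 (Tpm3 1449996_a_at and 1449997_at) of 18. Leaving out 1 array gave 4 to 8 member probe sets higher and 0 lower, 2 to 4 member genes higher and 0 lower, and 244 to 508 of all probe sets higher and 141 to 398 lower. It gave 0 to 4 member probe sets that differed from others of their gene, 10 to 13 thin filament genes higher and 0 to 1 lower, 1 to 2 turnover genes higher and 0 lower, 0 to 1 nonmuscle partners higher and 0 to 1 lower, and 0 SRF pathway genes higher and 0 to 1 lower. With ordinary statistics 1 member probe set and 1 member gene were higher, as were 112 of all probe sets with 49 lower; thin filament genes were 5 higher and 0 lower, 1 turnover gene was higher, and nonmuscle partners and SRF pathway genes had 0 lower. The 4 arrays of higher spike signal gave 1, 1, 120, 64, 7, 0, 1, 0 and 0 for the same 9 counts, and 0 member probe sets that differed from others of their gene. As a replicate block, the shared number gave 349 probe sets higher and 243 lower, 0 differing member probe sets, 1 turnover gene higher and 1 SRF pathway gene lower, and the member count stayed within 1.5 times. Array weights gave 1119 higher and 862 lower, 6 differing member probe sets, and 1 nonmuscle partner and 1 SRF pathway gene higher. The count of differing member probe sets was 0 with an offset of 1, the filter on intensities under 16 or the spike arrays as a block, 2 with an offset of 64 or the Gapdh ratio as a covariate, and 3 within arrays. Nonmuscle partners had 0 lower and SRF pathway genes 1 lower with no normalization, median centring, moderation with a trend, or the Gapdh covariate, and both had 0 lower with an offset of 1, where 1 turnover gene was higher. Thin filament genes had 0 lower with an offset of 64, the spike block or the Gapdh covariate. An SRF pathway gene was higher (1) with an offset of 1, with a trend, adjusted over genes alone and with the mean of probe sets, where 1 was lower; the last 2 also gave 1 nonmuscle partner higher. Signs turned only at member probe sets that did not pass. Actb 1436722_a_at was 0.0014 without normalization, 0.020 median centred, 0.11 without PRDM2 KD array 1 and 0.27 without GFP control array 2, and Actb 1419734_at was 0.041 without GFP control array 3 and 0.16 in the 4 arrays. Acta2 1444105_at was 0.00075 median centred and 0.0037 without GFP control array 3, and Actg1 was -0.029 in the 4 arrays. Tpm1 1456623_at was -0.0011 with an offset of 64, -0.040 weighted, -0.22 in the 4 arrays, -0.21 with the Gapdh covariate, and -0.19, -0.036 and -0.23 without PRDM2 KD array 2 and GFP control arrays 1 and 3. Tpm2 1419738_a_at was 0.017 weighted, 0.080 in the 4 arrays, 0.045 with the Gapdh covariate, and 0.0066 and 0.066 without PRDM2 KD array 2 and GFP control array 3. Tpm3 1427567_a_at was -0.73 in the 4 arrays, -0.36 with the Gapdh covariate, and -0.13 and -0.45 without PRDM2 KD array 3 and GFP control array 3. Among fits that leave out 1 array, counts of members or partners above those of all 6 arrays came from leaving out GFP control array 2 (8 member probe sets, 4 member genes and 4 differing member probe sets, and 1 nonmuscle partner higher) or array 3 (13 thin filament genes). The cause of these changes was not tested. Over all fits that leave out 1 array, Acta2 1444105_at reached -0.047, Actb 1436722_a_at -0.32, Actb 1419734_at -0.78, Tpm1 1456623_at 0.30, Tpm2 1419738_a_at -0.18 and Tpm3 1427567_a_at 0.82 at the other end of their ranges.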
